A study of Homo sapiens with 12 samples.

Results

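Drug efflux and organic cation transporters are the membrane proteins by which a kidney tubule cell exports drugs, conjugated metabolites and organic cations or takes up carnitine and related compounds. The set described here holds 10 genes fixed by their symbols: the efflux pump genes ABCB1, ABCC1, ABCC2, ABCC3, ABCC4, ABCC5 and ABCG2, the organic cation and carnitine carrier genes SLC22A5 and SLC22A4, and the exporter gene SLC47A1. Among the probe sets annotated with exactly 1 symbol, the one with the greatest average level across the 12 arrays stood for its gene. Of the 10 genes, 7 reached 5 log2 units on at least 1 array, were called detected and entered the tests, out of 10050 genes tested in all. The other 3, ABCC2, ABCG2 and SLC47A1, stayed below 5 log2 units on every array and were not detected.

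The samples are HK-2, an established human line of immortalised proximal tubule epithelium. Cells received the compound Ra or only the control vehicle for 12 h or 48 h. The series looked for expression signatures of kidney toxicity. The 4 groups are Ra 12 h, control 12 h, Ra 48 h and control 48 h, each with 3 samples that the labels call biological replicates. All groups are the same line, grown with EGF, insulin and hydrocortisone and treated near confluence; the sources used here do not say what Ra is or at which dose it was given. Total RNA was measured on Affymetrix 3′ expression arrays, and values are GCRMA log2 expression values, on which 1 unit is a doubling of signal. The number of arrays limits the precision. Values of different probe sets are not on 1 scale, so levels are compared between groups within a gene and not between genes.

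The ABC genes encode pumps that use ATP to move compounds across a membrane. ABCB1 (P-glycoprotein) and ABCG2 expel bulky drugs. ABCC2 and ABCC4 lie in the apical membrane of the proximal tubule and export conjugates and organic anions, while ABCC1 and ABCC3 lie in the basolateral membrane of many epithelia, and ABCC5 carries nucleotide analogues. SLC22A5 (OCTN2) reclaims carnitine from the filtrate together with sodium, SLC22A4 (OCTN1) takes up ergothioneine and organic cations, and SLC47A1 (MATE1) exports organic cations into the urine in exchange for protons.

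Replicates were tight at 12 h and loose at 48 h. For a typical gene (the median over genes) the replicate SD came to 0.122 for Ra and 0.124 for control samples after 12 h, and to 0.431 for Ra and 0.219 for control samples after 48 h, all on the log2 scale. The array of Ra 48 h replicate 2 lay apart from the rest: the 75th percentile of its probe sets was 6.30 log2 units, against 7.01 to 7.21 on the other 11 arrays. The median of all tested genes was shifted by -0.20 log2 units with Ra at 48 h (0.01 without that array) and by 0.01 at 12 h. Each comparison of Ra with control was therefore fitted on its own 6 arrays. Of the proximal tubule markers on the array, 7 of 8 (LRP2, CUBN, SLC34A1, SLC5A2, AQP1, GGT1 and ANPEP) stayed below 5 log2 units on all arrays, PAX8 being the exception. PAX8 averaged 10.52 in Ra-treated and 10.97 in control samples of 12 h. All 5 keratin epithelium markers were measured, and so were COL1A1 and DCN of the 4 fibroblast markers and SYNPO of the 3 podocyte markers on the array. The distal nephron, endothelial and immune markers on the array (4, 4 and 3 genes) had 0 measured members. Neither COL1A1, DCN nor SYNPO passed at 12 h, while PAX8 fell by 0.46 log2 units (limma adjusted p = 0.0225) and EPCAM, an epithelial adhesion gene, rose by 0.34 (0.0254). Both calls were lost without a filter on low values (0.0586 and 0.0713) and without any 1 array other than Ra 12 h replicate 3. That of EPCAM was also lost without letting the prior variance follow intensity (0.0584). Of the 5 keratin epithelium markers 2 had a higher and 3 a lower mean with Ra at 48 h. Their median difference was -0.285 log2 units, beside -0.201 for all genes. CDH1, the E-cadherin gene of the keratin epithelium list, averaged 6.01 in Ra-treated and 7.50 in control samples of 48 h, with overlap (-1.48 ± 0.51, SE; limma adjusted p = 0.233). It passed with array weights (0.00487) and in a fit of all 12 arrays (0.0419). Leaving out 1 array in turn, that fit kept the call only without Ra 48 h replicate 1 or control 48 h replicate 3. Without Ra 48 h replicate 2 its difference was -1.15 (0.0892 in that fit). The part of these markers in the transporter results was not tested. In bulk RNA, fewer cells of a kind and less RNA per cell cannot be told apart.

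The first comparison asks how the transporters differed after 12 h of Ra. ABCC3 rose 1.91-fold and ABCB1 fell 1.35-fold. SLC22A5 was called lower, but its Ra values lay under 5 log2 units and it entered the test through its control arrays, so no fold is given. ABCC1, ABCC4, ABCC5 and SLC22A4 did not pass the test. In limma's fit of the 6 arrays of 12 h, with p adjusted by Benjamini-Hochberg over all 10050 genes, 1 transporter was called higher and 2 lower, 1 of the 2 being SLC22A5, whose entry the higher group decided. Of all tested genes 13.6% were called, 7.34% higher and 6.25% lower.

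ABCC3 had 8.88, 8.81 and 8.85 log2 units in Ra-treated cells at 12 h, against 8.08, 7.83 and 7.84 in control cells. All 3 Ra arrays lay above all 3 control arrays, and the gap between the groups was wider than either group's range. The difference was 0.93 ± 0.10 log2 units (SE, n = 3 per group; limma adjusted p = 0.00567). ABCC3 pumps glucuronide and other conjugates towards the blood side of epithelia and is a known target of the stress-response factor NRF2. The call held without each of the 6 arrays in turn (limma adjusted p from 0.0154 to 0.0361).

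ABCB1 had 9.56, 9.63 and 9.58 log2 units in Ra-treated cells at 12 h, against 10.06, 9.99 and 10.03 in control cells. Here every Ra array lay below every control array. The difference was -0.44 ± 0.07 log2 units (SE; limma adjusted p = 0.0127). The call was lost without Ra replicate 1 (adjusted p = 0.0543) and without control replicate 1 (adjusted p = 0.0502), with differences of -0.42 in both cases. A probe set that the annotation assigns to both ABCB1 and its close relative ABCB4 read 9.60, 9.93 and 9.76 log2 units in Ra-treated cells and 10.28, 10.24 and 10.12 in control cells at 12 h, again with no overlap. That probe set cannot separate the 2 genes and was not tested.

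SLC22A5 had 4.83, 4.99 and 4.91 log2 units in Ra-treated cells at 12 h, against 5.62, 5.43 and 5.94 in control cells. The groups did not overlap, but all Ra values lay under 5 log2 units, where GCRMA's background model shapes the size of a difference. The difference was -0.76 ± 0.15 log2 units (SE; limma adjusted p = 0.0226). SLC22A5 passed the filter on low values with 4 arrays at 5 log2 units or more, 3 of them control arrays of 12 h, so it entered the test through the group where it was high and its call is no support for a count of falls. That call was lost without Ra replicate 1 (adjusted p = 0.0764), Ra replicate 2 (0.0697), control replicate 1 (0.0619) or control replicate 3 (0.0520), and without a filter on low values (0.0599). Its difference lay between -0.87 and -0.62 in the fits that left out 1 array.

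The remaining detected transporters moved less. ABCC4 had 10.12, 10.25 and 10.10 log2 units in Ra-treated cells and 10.26, 10.29 and 10.29 in control cells at 12 h. These groups just failed to overlap, with a difference of -0.12 ± 0.07 log2 units (SE; limma adjusted p = 0.294). ABCC5 differed by -0.25 ± 0.14 (adjusted p = 0.263), ABCC1 by 0.03 ± 0.09 (adjusted p = 0.847) and SLC22A4 by 0.18 ± 0.14 (adjusted p = 0.442), all 3 with overlapping arrays. The groups did not overlap for 4 of the 7 tested transporters, ABCB1, ABCC3, ABCC4 and, with the limit given above, SLC22A5, 1 of them higher and 3 lower. They did not overlap for 35.3% of all tested genes, 18.4% higher and 16.9% lower.

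**Figure D1:**
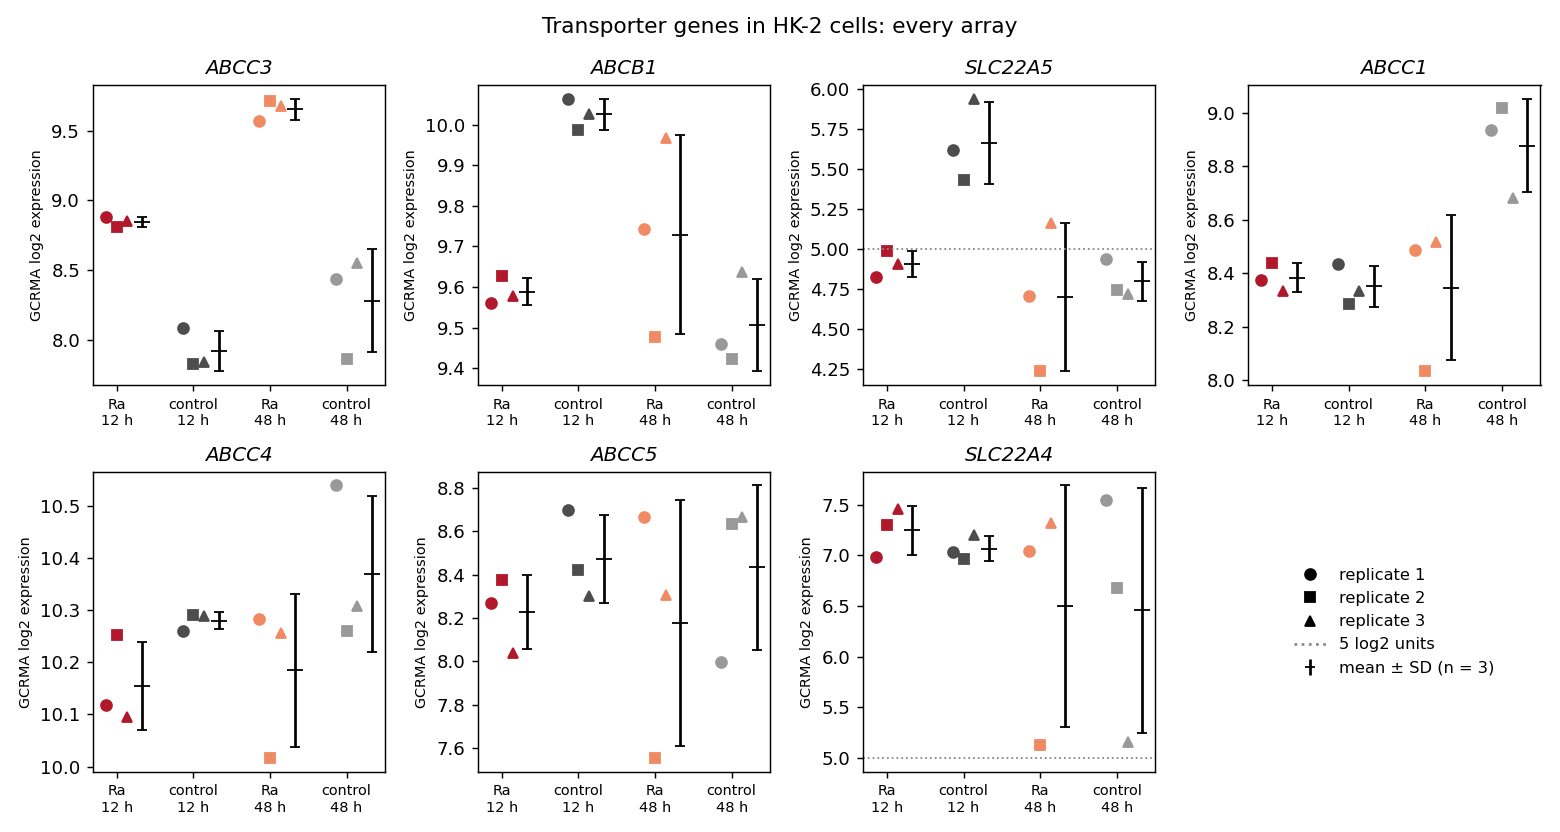
GCRMA log2 expression (vertical axes, a separate scale per gene) of the 7 detected transporter genes on every array, for Ra and control at 12 h and Ra and control at 48 h; symbols mark the replicate number, bars give the mean ± SD (n = 3) and the dotted line marks 5 log2 units. ABCC3 lies above control with Ra at both times, and ABCB1 and SLC22A5 are highest in control cells at 12 h.

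These 12 h calls rest on the small spread of the 12 h arrays. In a fit of all 12 arrays, which shares 1 spread with the 48 h arrays, 0 of the 7 transporters and 0.0299% of all genes passed at 12 h, with limma adjusted p = 0.199 for ABCC3, 0.527 for ABCB1 and 0.446 for SLC22A5. Arrays with equal numbers shared deviations at this time, and a block for that number called 2351 genes in place of 1366, with ABCC3, ABCB1 and SLC22A5 again the 3 transporters called.

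After 48 h, ABCC3 had the largest difference of the 7 transporters. It had 9.57, 9.72 and 9.68 log2 units in Ra-treated cells, against 8.43, 7.86 and 8.55 in control cells. Every Ra array lay more than 1 unit above every control array, and the Ra arrays were closer together than the control arrays. The difference was 1.37 ± 0.28 log2 units (SE, n = 3 per group; 2.59-fold), with an unadjusted limma p of 0.000906 and an adjusted p of 0.191, so it did not pass over all genes in the fit of the 6 arrays of 48 h. In that fit 0% of all tested genes passed (lowest adjusted p = 0.168). An unadjusted p under 0.05 was found for 1748 genes (17.4%) and for 1 of the 7 transporters, ABCC3. In limma's fit of all 12 arrays 12.6% of genes passed, 3% higher and 9.56% lower (301 of the 1262 higher). There ABCC3 rose with an adjusted p = 0.00822. That fit shares 1 spread with the tighter 12 h arrays. Its SE for ABCC3 at 48 h was 0.20, below the 0.28 of the 48 h arrays alone. Its calls at 48 h therefore rest on more precision than the 48 h arrays show. ABCC3 kept its call in that fit without each of the 12 arrays in turn (adjusted p from 0.00206 to 0.0450). The excess of lower calls among all genes turned when arrays were centred on their median (1578 of 2863 higher) and without Ra 48 h replicate 2 (1126 of 1943 higher). Without Ra 48 h replicate 2 the difference of ABCC3 was 1.34 log2 units, and with each array centred on its median it was 1.63.

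ABCC1, the broad exporter of glutathione conjugates, had 8.49, 8.03 and 8.52 log2 units in Ra-treated cells at 48 h, against 8.94, 9.02 and 8.68 in control cells. The arrays did not overlap, and the lowest of the Ra values was on the array that stood apart. The difference was -0.53 ± 0.27 log2 units (SE; limma adjusted p = 0.334, and 0.0703 in the fit of all 12 arrays). It passed in the fit of all 12 arrays only without Ra 48 h replicate 1 (-0.60, adjusted p = 0.0418) or control 48 h replicate 3 (-0.63, 0.0484). The difference was -0.28 after quantile normalization (0.319) and with arrays centred (0.353), and -0.38 without Ra 48 h replicate 2, while array weights gave -0.47 and a call (0.0116). ABCC1 and ABCC3 were 2 of the 7 transporters without overlap at 48 h, 1 higher and 1 lower, where the groups did not overlap for 24% of all tested genes, 5.37% higher and 18.6% lower.

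ABCB1 had 9.74, 9.48 and 9.97 log2 units in Ra-treated cells at 48 h, against 9.46, 9.42 and 9.64 in control cells. The groups overlapped, and the difference was 0.22 ± 0.25 (SE; limma adjusted p = 0.654), with the sign opposite to that at 12 h. Its size was 0.10 without Ra 48 h replicate 3, 0.35 without Ra 48 h replicate 2, 0.047 with the mean of its probe sets, 0.45 after quantile normalization and 0.47 with arrays centred. ABCB1 was called higher with array weights (0.49, adjusted p = 0.00846) and in the fit of all 12 arrays with arrays centred (0.0241). SLC22A5 had 4.71, 4.24 and 5.16 log2 units with Ra and 4.94, 4.74 and 4.72 in control cells at 48 h. Of these arrays only Ra replicate 3 lay above 5 units, and the difference of -0.10 ± 0.30 (adjusted p = 0.883) turned to 0.13 without Ra 48 h replicate 2.

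ABCC4 had 10.28, 10.02 and 10.26 log2 units in Ra-treated cells at 48 h, against 10.54, 10.26 and 10.31 in control cells (difference -0.18 ± 0.22, SE; limma adjusted p = 0.684). ABCC5 differed by -0.26 ± 0.36 (adjusted p = 0.726), with its lowest value, 7.55, on Ra 48 h replicate 2. After quantile normalization the differences of ABCC4 and ABCC5 were 0.01 each, so neither has a stable sign at 48 h. SLC22A4 varied most: 7.04, 5.13 and 7.32 log2 units with Ra and 7.54, 6.68 and 5.16 in control cells at 48 h. One array in each group read over 2 units lower than that group's highest, and the difference of 0.04 ± 0.71 (adjusted p = 0.985) carries an error too wide to tell a fall from a rise.

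**Figure D2:**
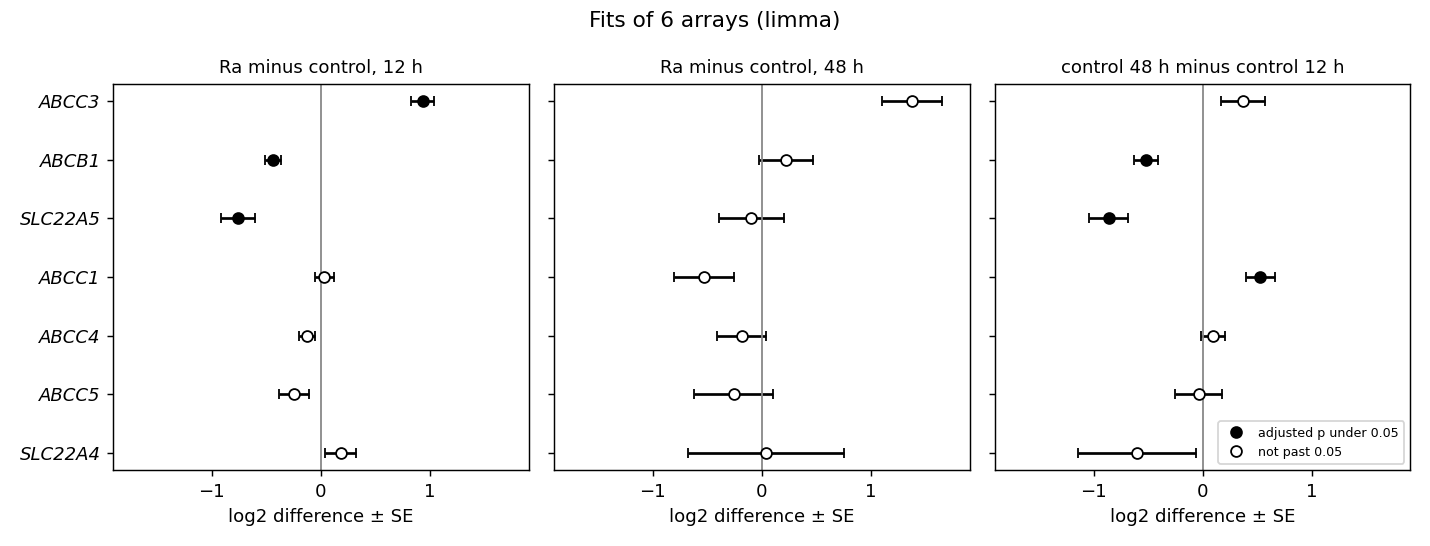
Log2 differences (horizontal axes) with their SE for the 7 detected transporters, from limma fits of 6 arrays each: Ra minus control at 12 h, Ra minus control at 48 h, and control 48 h minus control 12 h. Filled points have an adjusted p under 0.05: ABCC3, ABCB1 and SLC22A5 in the left panel, none in the middle, and ABCB1, SLC22A5 and ABCC1 in the right panel.

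Control cells changed over the same time. Of the 7 transporters 1 was higher and 2 were lower in control cells at 48 h than at 12 h, where 33.2% of all tested genes were called (16.6% higher and 16.6% lower). ABCB1 averaged 9.51 ± 0.11 log2 units in control cells at 48 h and 10.03 ± 0.04 at 12 h (SD, n = 3 each), a difference of -0.52 ± 0.11 (SE; limma adjusted p = 0.0137). SLC22A5 averaged 4.80 ± 0.12 at 48 h and 5.66 ± 0.26 at 12 h, a difference of -0.86 ± 0.18 (adjusted p = 0.0131). All 3 of its control values at 48 h lay under 5 log2 units and it passed the filter through the 12 h group, so this call has the same limit as the one with Ra. ABCC1 averaged 8.88 ± 0.18 at 48 h and 8.35 ± 0.08 at 12 h, a difference of 0.53 ± 0.13 (adjusted p = 0.0247). ABCC3 differed by 0.36 ± 0.20 (adjusted p = 0.201). The groups did not overlap for 3 of the 7, ABCB1, ABCC1 and SLC22A5, 1 higher and 2 lower, against 50.8% of all tested genes, 24.8% higher and 26% lower. The fit of all 12 arrays called ABCB1 and SLC22A5 lower and 19.5% of all genes, 9.37% higher and 10.1% lower. The call of ABCC1 was lost in the fit of all 12 arrays (adjusted p = 0.0616) and in the fits without control 12 h replicates 1, 2 or 3 or control 48 h replicates 1 or 2 (adjusted p from 0.0538 to 0.0859). With the mean of the ABCC1 probe sets its call was lost too (0.36, limma adjusted p = 0.0964). That of ABCB1 was lost without control 12 h replicate 1 or 3 (0.0610 and 0.0569) and with the mean of its probe sets (0.133).

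Set in order, the 4 groups ranked differently for each of these genes. ABCC3 was highest in Ra-treated cells at 48 h (9.66), then in Ra-treated cells at 12 h (8.85), then in control cells at 48 h (8.28) and at 12 h (7.92). Only the 2 control groups, the last neighbours in this order, overlapped. ABCB1 and SLC22A5 were highest in control cells at 12 h, with no array of another group reaching that group's lowest value, and each overlapped between neighbours in the rest of the order. For ABCB1 the means were 9.73 in Ra-treated cells at 48 h, 9.59 in Ra-treated cells at 12 h and 9.51 in control cells at 48 h. ABCC1 was set apart in control cells at 48 h (8.88), while the other 3 groups had means between 8.35 and 8.38 and overlapped. For ABCC4, ABCC5 and SLC22A4 all neighbours in the order overlapped.

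The third comparison tests whether the effect of Ra at 48 h differed from that at 12 h, over all 12 arrays. ABCB1 gave the lowest p among the transporters, with a difference of effects of 0.66 ± 0.22 log2 units (SE; unadjusted p = 0.0120; limma adjusted p = 0.156). SLC22A5 gave 0.66 ± 0.33 (adjusted p = 0.301), ABCC1 -0.56 ± 0.26 (adjusted p = 0.256) and ABCC3 0.44 ± 0.28 (adjusted p = 0.394). ABCC4, ABCC5 and SLC22A4 gave -0.06, -0.01 and -0.14, signs that turn in several alternatives. In that fit 0 of the 7 transporters passed, 2 of them (ABCB1 and ABCC1) had an unadjusted p under 0.05, and 0.0199% of all genes passed, while 19.2% of all genes (1933) had an unadjusted p under 0.05. ABCB1 passed without Ra 48 h replicate 2 (0.79, limma adjusted p = 0.0384) and with arrays centred on their median (0.93, 0.0234). ABCC3's difference of effects was 0.23 without control 48 h replicate 2, 0.70 after quantile normalization and 0.71 with centring, and array weights called it (0.83, limma adjusted p = 0.00366). Its call in the 6-array fit of 12 h and not in that of 48 h is no test of a difference between the times.

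Other probe sets bear on how far each value can be trusted. ABCC3 has a further probe set with signal, which read 7.25, 7.41 and 7.23 log2 units with Ra and 6.96, 6.56 and 6.57 in control cells at 12 h, and 7.93, 8.35 and 8.02 with Ra and 7.22, 6.54 and 7.23 in control cells at 48 h. Its differences of 0.60 and 1.10 log2 units have the sign of the chosen probe set at both times, with no overlap between the groups. Both are of a design whose probes can match several transcripts, and the other 3 probe sets of ABCC3 stayed below 5 units. The 3 probe sets of ABCC4 with signal were all lower with Ra at 12 h, without overlap, with differences of -0.12, -0.22 and -0.30 log2 units. At 48 h the other 2 differed by -0.45 and -0.86, with overlap and with their lowest values (7.39 and 5.24) on Ra 48 h replicate 2. A further ABCC5 probe set differed by -0.02 at 12 h, with overlap, and by -0.86 at 48 h, without overlap. Its lowest value, 2.79, was on the same array. It reached 5 log2 units on only 3 arrays, so it lies near background. At 48 h its highest Ra value (4.744) and lowest control value (4.746) all but met. The further ABCB1 probe set differed by -0.22 at 12 h and -0.13 at 48 h, with overlap at both times, so at 48 h its sign is opposite to that of the chosen one. For ABCC1 the further probe set gave -0.10 at 12 h and -0.21 at 48 h, both with overlap.

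**Figure D3:**
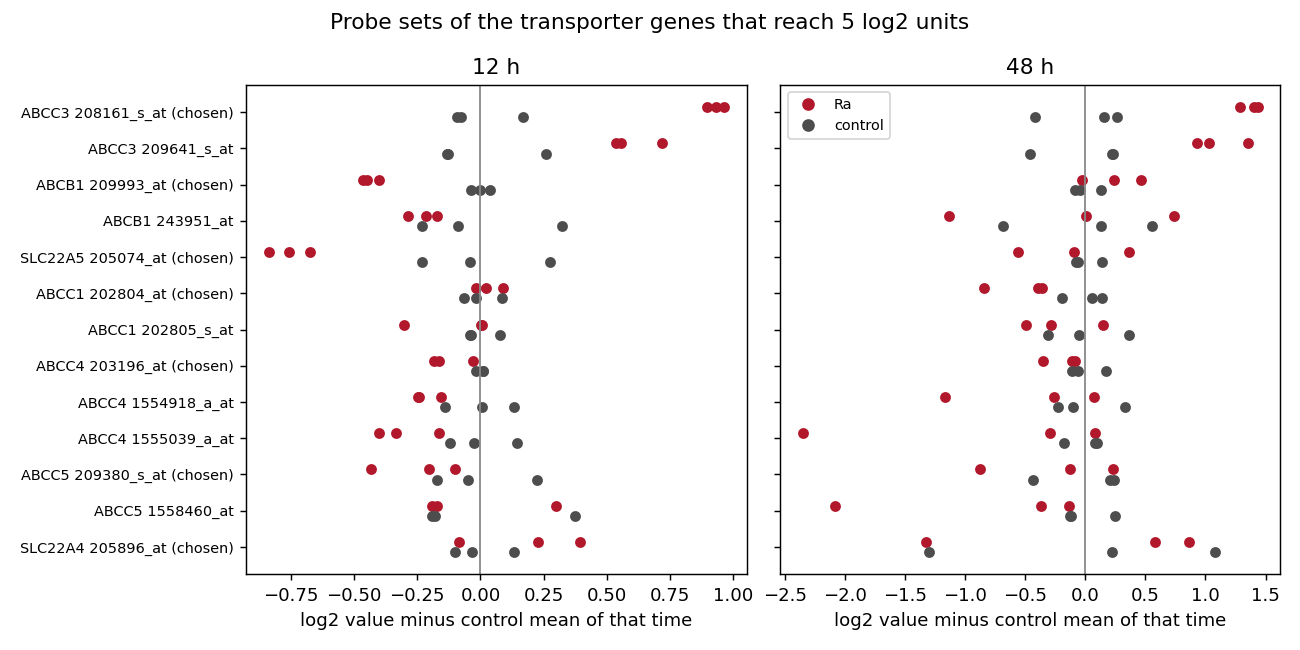
Every array's log2 value minus the control mean of the same time (horizontal axes; 12 h left, 48 h right, on different scales) for the 13 probe sets of the transporters that reach 5 log2 units, Ra above control in each row. Both ABCC3 probe sets separate Ra from control at both times, and the values far to the left at 48 h for ABCC4 and ABCC5 are from Ra 48 h replicate 2.

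The undetected transporters include ABCC2 and SLC47A1, exporters of the proximal tubule for anions and for cations. ABCC4, which also lies in the apical membrane and exports anions, was detected. ABCC2, ABCG2 and SLC47A1 each have 1 probe set, and their values over all 12 arrays lay between 2.09 and 2.58 log2 units, at the background level of these arrays. No difference of theirs is given, since a change below that level would not be seen.

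Sequences upstream of the start sites are shown for ABCB1 and for the neighbours SLC22A5 and SLC22A4, the first because its mRNA fell at 12 h and the pair because on the same strand of chromosome 5 one gene was called lower and the other did not pass. They are RefSeq sequences of build GRCh38.p14, from 250 bases before to 50 bases after the start, and 7 of the 10 transporters had an entry. Capitals mark matches, on either strand, to the CCAAT box (CCAAT) and the GC box (GGGCGG).
ABCB1, chr7:87600835-87601134, minus strand: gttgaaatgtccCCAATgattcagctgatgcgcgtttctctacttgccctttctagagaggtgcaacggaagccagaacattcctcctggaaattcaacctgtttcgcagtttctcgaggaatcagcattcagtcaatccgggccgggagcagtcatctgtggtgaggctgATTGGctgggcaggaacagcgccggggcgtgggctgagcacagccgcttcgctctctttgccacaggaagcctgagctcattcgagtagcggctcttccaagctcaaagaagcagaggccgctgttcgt
SLC22A5, chr5:132369460-132369759, plus strand: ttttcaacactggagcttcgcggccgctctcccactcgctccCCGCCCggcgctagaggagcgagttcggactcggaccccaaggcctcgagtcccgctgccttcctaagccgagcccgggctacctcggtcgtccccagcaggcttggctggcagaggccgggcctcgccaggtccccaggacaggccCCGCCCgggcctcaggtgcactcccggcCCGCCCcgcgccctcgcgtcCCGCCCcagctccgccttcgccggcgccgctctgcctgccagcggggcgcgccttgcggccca
SLC22A4, chr5:132294144-132294443, plus strand: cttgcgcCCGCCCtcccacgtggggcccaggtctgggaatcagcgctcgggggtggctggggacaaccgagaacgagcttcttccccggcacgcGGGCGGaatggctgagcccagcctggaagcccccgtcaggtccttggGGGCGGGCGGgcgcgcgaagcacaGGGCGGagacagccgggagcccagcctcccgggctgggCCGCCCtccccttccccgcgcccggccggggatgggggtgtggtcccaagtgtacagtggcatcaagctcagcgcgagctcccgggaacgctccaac

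The window of ABCB1 shown is that of its downstream start, 1 of 2 given, and it holds 2 CCAAT matches and 0 GC box matches. The window of its upstream start, not shown, holds 0 matches to these boxes and to the other motifs searched. The windows of SLC22A5 and SLC22A4 hold 4 and 6 GC box matches, of which 2 in SLC22A4 overlap each other, and 0 CCAAT matches. All 35116 windows of this length that RefSeq gave were searched alike, of which 34.6% hold a CCAAT match and 45.0% a GC box match. The antioxidant response element core (TGACNNNGC) and the TATA box (TATAAA) had 0 matches in the 3 windows shown, against 13.3% and 11.5% of all windows with one. Windows of the set not shown did hold them: the antioxidant core in ABCC4 and ABCG2, the TATA box in ABCC5 and ABCC2. ABCC1, ABCC3 and SLC47A1 had no window to search. The xenobiotic response element core (GCGTG), not capitalised, had 1 match in ABCB1 and 1 in SLC22A4, against 36.5% of all windows. These matches describe the letters and were set against no measurement of binding.

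Other genes of the same families and pathways were taken from 6 lists. Of 16 tested members of the other ABC genes 3 fell at 12 h and 0 rose, with a median of -0.115 log2 units beside 0.01 for all genes, of which 6.25% were called lower and 7.34% higher. The 3 were ABCF1 (-0.55 ± 0.08, SE; limma adjusted p = 0.0107), ABCE1 (-0.40 ± 0.08, 0.0195) and ABCF2 (-0.33 ± 0.08, 0.0340), whose proteins carry ATP-binding domains without a membrane part: ABCE1 recycles ribosomes and ABCF1 takes part in translation initiation. Of 7 tested members of the other organic ion carriers SLC19A1, the reduced folate carrier, fell (-0.75 ± 0.13, adjusted p = 0.0151). ABCF1 kept its call without each of the 6 arrays. The call of ABCE1 was lost without Ra replicate 1 or 2 or control replicate 2 or 3, that of SLC19A1 without Ra replicate 1 or 2 or control replicate 1, and that of ABCF2 without any 1 array but control replicate 2 (adjusted p up to 0.104). ABCF2 was also lost without a filter on low values (0.0632) and without probe sets of the less specific types (0.168). The fit of all 12 arrays called none of the 4.

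Among 14 tested regulators and scaffolds of these transporters 3 rose and 0 fell at 12 h, around a list median of 0.04, where 7.34% of all genes were called higher and 6.25% lower. NFE2L2, which encodes NRF2, averaged 11.69 with Ra and 11.22 in control cells (0.47 ± 0.11, SE; limma adjusted p = 0.0333). BACH1, a repressor at NRF2's binding sites, differed by 0.65 ± 0.14 (adjusted p = 0.0256) and RDX, radixin, which ties ABC pumps to the actin skeleton, by 0.28 ± 0.07 (0.0349). Of 13 tested NRF2 target enzymes 3 rose and 0 fell, with a median of 0.18: GCLC, of glutathione synthesis (0.56 ± 0.12, adjusted p = 0.0250), the thioredoxin reductase gene TXNRD1 (0.53 ± 0.11, 0.0254) and the ferritin light chain gene FTL (0.16 ± 0.04, 0.0401). All 6 of these regulator and target calls were lost in the fit of all 12 arrays, without a filter on low values (adjusted p from 0.0643 to 0.115) and without Ra replicate 1, control replicate 2 or control replicate 3. Without Ra replicate 2 all but that of GCLC were lost, and without control replicate 1 all but that of TXNRD1. NFE2L2 differed by 0.22 with the mean of its probe sets (0.181), and FTL was also lost after quantile normalization (0.0527) and centring (0.106). RDX differed by 0.21 with the mean of its probe sets (0.137). GCLC was lost without probe sets of the less specific types (0.102). NFE2L2, RDX and FTL were lost without letting the prior variance follow intensity (0.0535, 0.0622 and 0.196). At 12 h 0 passed of 15 genes for glutathione and conjugation enzymes and of 17 for the carnitine shuttle and fatty acid oxidation. The latter use the carnitine that SLC22A5 imports. Of all tested genes 13.6% were called. Among these 15 and 17 genes 3 and 1 had an unadjusted p under 0.05. These counts were not set against all genes, so they cannot show a response of either list.

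At 48 h 0 genes of these 6 lists passed limma's test on the 6 arrays, where 0% of all genes did. An unadjusted p under 0.05 was found for 5 of 13 NRF2 target enzymes, 3 of 15 conjugation genes and 2 of 17 carnitine genes. It was found for 2 of 16 other ABC genes, 2 of 7 organic ion carriers and 0 of 14 regulators. Of all genes 17.4% had one, and whether a list differs from that share was not tested. In the fit of all 12 arrays NRF2 target enzymes fell in 3 of 13 cases, where 9.56% of all genes were called lower. The list's median was -0.63 log2 units, beside -0.20 for all genes. That fit takes part of its spread at 48 h from the tighter 12 h arrays. SLC7A11, the cystine carrier, had a difference of -3.67 ± 0.84 (SE; adjusted p = 0.0220), ME1 -0.97 ± 0.21 (0.0178) and GCLC -0.87 ± 0.23 (0.0306). These 3 calls were lost without control 48 h replicate 1 (adjusted p = 0.0754, 0.0574 and 0.124) and without control 48 h replicate 2 (0.0929, 0.0843 and 0.0935), and those of SLC7A11 and GCLC also without Ra 48 h replicate 3 (0.0601 and 0.0677). GCLC was lost as well without control 12 h replicate 1 or 3. GCLC had opposite signs at the 2 times, but the difference of the effects did not pass (-1.43, limma adjusted p = 0.0847). ABCC3 was higher at both times. A part of NRF2 in these differences was not tested. In that fit the conjugation list had 3 falls, POR, SULT1A1 and TPMT (-1.06, -0.68 and -0.64), and the carnitine list had 1 rise, HADH (0.63). The other ABC genes had ABCA12, a lipid carrier of the skin, at -2.52 ± 0.56 (adjusted p = 0.0207). ABCA12 averaged 5.41 ± 1.17 (SD) with Ra at 48 h, near 5 log2 units, which limits the size of its difference. They also had ABCB10, a mitochondrial carrier, at 0.90 ± 0.25 (0.0379), and the organic ion carriers had SLC22A15 at -1.93 ± 0.49 (0.0302). Each of these 7 calls was also lost in that fit without control 48 h replicate 1 or replicate 2, those of ABCA12 and SLC22A15 without Ra 48 h replicate 3, that of SLC22A15 without Ra 48 h replicate 2, and those of POR, TPMT, HADH and ABCB10 without most of the other single arrays. The median differences at 48 h were -0.08 for the other ABC genes, 0.20 for the organic ion carriers, -0.105 for the regulators, -0.14 for conjugation and -0.18 for the carnitine list.

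**Figure D4:**
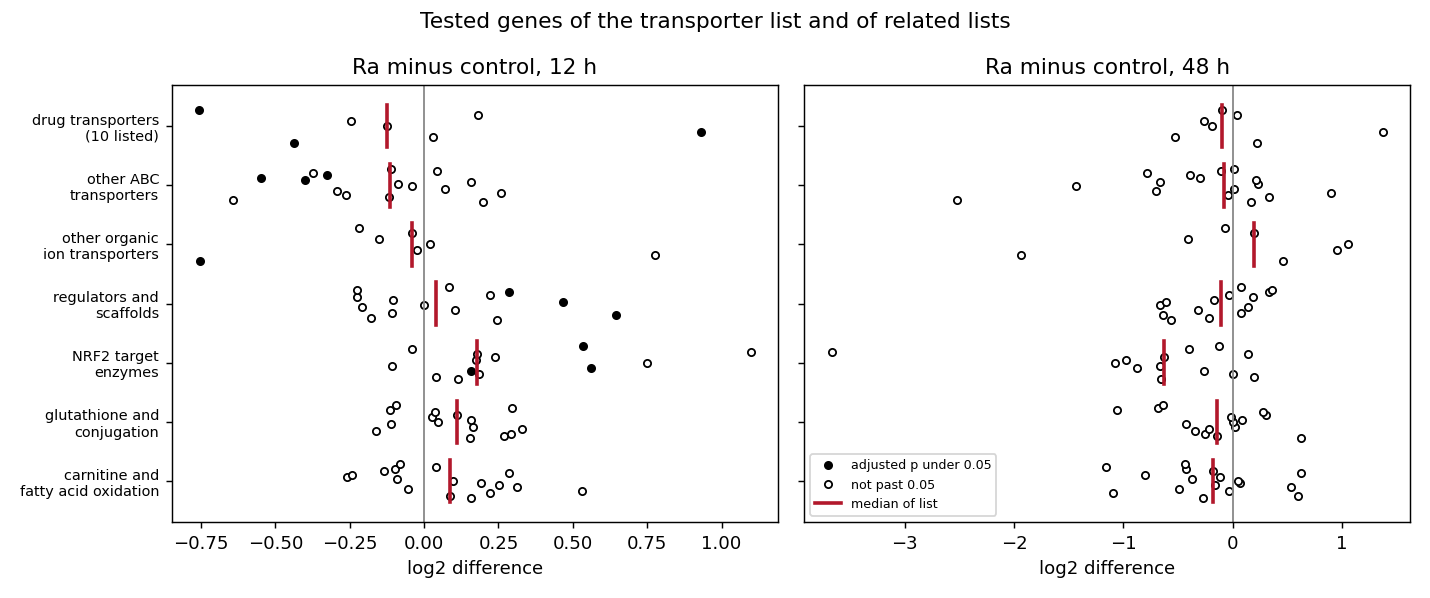
Log2 differences of Ra minus control (horizontal axes, different scales) at 12 h and 48 h for the tested genes of the transporter set and of 6 related lists; filled points have a limma adjusted p under 0.05 in the fit of 6 arrays and red bars mark each list's median. Filled points appear at 12 h in 5 of the 7 rows and at 48 h in none.

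Of the tested genes outside the set, the one most like each transporter over the 12 arrays was found by Pearson's r. For ABCC3 it was TPCN1, a two-pore channel gene of lysosomes, with r = 0.968, and TPCN1 averaged 10.91 in Ra-treated and 10.26 in control samples of 12 h, and 11.33 in Ra-treated and 10.66 in control samples of 48 h. ABCB1 was most like the nuclear pore gene NUP93 (r = 0.940), ABCC1 most like MXD1 (0.985) and SLC22A5 most like LHX6 (0.953). MXD1 averaged 8.17 in control cells at 48 h and 6.00 to 6.31 in the other groups. LHX6 averaged 5.96 in control cells at 12 h and 4.83 to 5.05, near 5 log2 units, in the other groups. The partners of ABCC4, ABCC5 and SLC22A4 were EHD3 (0.924), AQR (0.930) and AP4S1 (0.965). Each is the highest over the tested genes, and the arrays share group, time and the outlying array, so they serve as a description. Spearman's rho of the same pairs was 0.713 for SLC22A5, 0.790 for SLC22A4 and 0.797 for ABCC4. For ABCB1, ABCC1, ABCC3 and ABCC5 it lay between 0.881 and 0.944.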

How the data were processed

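The authors deposited log2 values made with GCRMA, per the submitters' processing notes; GCRMA corrects background by probe sequence, normalizes arrays and shrinks low signals. The sources used here give neither its version nor which arrays were normalized together. Of 54675 probe sets 41097 had 1 gene symbol in the platform annotation, 1801 had several and 11777 none listed there. Entrez numbers of 41043 matched RefSeq, changing 0 symbols. Probe sets with 1 symbol and at least 3 arrays at 5 log2 units (17339) were kept, and the one with the highest mean stood for its gene, which left 10050 genes. The array pairs with identical values numbered 0.

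Each comparison was fitted with limma 3.58.1 in R 4.3.3 on its own 6 arrays (4 residual degrees of freedom), letting the prior variance follow intensity, and adjusted by Benjamini-Hochberg at 0.05; the difference of effects used all 12. Members, lists, and the choice of 6-array fits were made with earlier results of these data known. Named genes are the 10 transporters, up to 3 genes of each list past the test at 12 h, up to 3 past it or the 12-array fit at 48 h, and the closest gene of each transporter by correlation. Same-numbered arrays deviated together at 12 h (correlations 0.182, 0.421 and 0.344 between Ra and control arrays), and not at 48 h (0.301, -0.219 and 0.097) or between control times (0.025, -0.0231 and 0.0655). The code was tested on simulated data. Plots used matplotlib 3.10.9.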

Additional observations from a re-analysis of the deposited data

How the results depend on the processing

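At 12 h the 1366 genes became 506 without a filter on low values, 904 without probe sets of the less specific types, 2351 with a replicate block and 3 in the fit of all 12 arrays, which called 0 transporters; leaving out 1 array gave 293 to 1388 genes and 1 to 3 transporters. The 12 h call of ABCB1 was also lost with the mean of its probe sets (-0.33, limma adjusted p = 0.0511). At 48 h the 0 genes became 307 with a filter at 7 log2 units, 641 after quantile normalization, 714 with arrays centred on their median and 1262 in the fit of all 12 arrays, each with 1 transporter (ABCC3), 4790 with array weights, with 3 transporters (ABCC3, ABCB1 and ABCC1), and 131 with a replicate block, with 0; leaving out 1 array gave 0 to 71 genes and 0 transporters. Chosen after seeing the data, the fit of all 12 arrays with arrays centred called 2863 genes and 2 transporters at 48 h (ABCC3 and ABCB1), and without each array in turn 45 to 2725 genes and 1 to 2 transporters: 698, 724 and 757 without Ra 12 h replicates 1, 2 and 3, 692, 743 and 730 without those of control 12 h, 2725, 1943 and 612 without those of Ra 48 h, and 118, 45 and 1982 without those of control 48 h. For the difference of effects the 2 genes became 5 without a filter, 43 with the filter at 7, 12 without the less specific types, 944 after quantile normalization and 856 with centring (1 transporter each, ABCB1), 4464 with array weights (4 transporters: ABCB1, ABCC1, ABCC3 and SLC22A5) and 60 with a replicate block; leaving out 1 array gave 1 to 1041 genes and 0 to 1 transporters. Between control times the 3334 genes became 2091 without a filter, 5788 with array weights and 1955 in the fit of all 12 arrays, the mean of probe sets called 1 transporter, and leaving out 1 array gave 1429 to 4583 genes and 1 to 3 transporters. The replicate block also ended the call of ABCC1 between control times (adjusted p = 0.0512) and changed no other transporter call.

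Sign changes befell only transporters whose difference had not passed. At 12 h ABCC1 turned to -0.034 with the mean of probe sets, and ranged from -0.00214 to 0.073 without each array in turn. At 48 h ABCC4 turned to 0.014 after quantile normalization and 0.066 with centring, ABCC5 to 0.013 after quantile normalization, and SLC22A5 to 0.039 after quantile normalization, 0.15 with centring and 0.32 with weights. Without each array in turn ABCC5 ranged from -0.50 to 0.053, SLC22A5 from -0.33 to 0.13 and SLC22A4 from -0.61 to 0.72, and the fit of all 12 arrays turned ABCC5 to 0.053 and SLC22A5 to 0.13 without Ra 48 h replicate 2 and SLC22A4 to -0.23, -0.37 and -0.61 without Ra 48 h replicate 1 or 3 or control 48 h replicate 3. For the difference of effects ABCC4 turned to 0.13, 0.21 and 0.093, ABCC5 to 0.28, 0.25 and 0.00175 and SLC22A4 to 0.11, 0.13 and 0.48 with quantile normalization, centring and weights, and without each array in turn ABCC4 ranged from -0.11 to 0.026, ABCC5 from -0.26 to 0.30 and SLC22A4 from -0.79 to 0.54. Between control times ABCC4 turned to -0.00487 with the mean of probe sets, and ABCC3 to -0.00392 and ABCC5 to 0.064 with weights; without each array in turn ABCC5 ranged from -0.16 to 0.18 and SLC22A4 from -1.15 to 0.045. ABCC3 has no value without the less specific types, and SLC22A5 none at the filter of 7. Unless fewer arrays or genes were tested, the cause was not tested. Values under 5 log2 units lie near background, which limits SLC22A5.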
